A study of Mus musculus with 10 samples.

Results

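The liver array was compared with the hypothalamus array of the same chip, to ask which transcripts differ between an organ of metabolism and secretion and a region of the brain that governs hormones and behaviour. A probe set entered the comparison where it was no control and where at least one of its values exceeded the size of the 1st percentile of its own array, called the bound here. By this rule 4864 of 13057 probe sets could be compared, 3200 of 6523 on chip A and 1664 of 6534 on chip B. Of these, 3572 carried the name of a single gene, and they stood for 3120 of the 6137 genes named on the chips. The comparison used 4 of the 10 arrays of the series.

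The series measured messenger RNA of 5 tissues with Affymetrix one-colour arrays, which report the brightness of a set of short probes for each transcript. Liver and hypothalamus, like the pancreas, the muscle and a sample whose source label names white adipose tissue but whose title reads preconfluent, a word for cultured cells, came from adult female C57BL/6 mice, with no treatment or altered allele named for any group. Every tissue was run on 1 array of chip A and 1 of chip B. The number of animals behind an array is not given in the sources used here, and neither is whether chips A and B received the same RNA. Without replicate arrays no difference is tested here and none has an error between animals. Precision is limited by the number of arrays.

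Hepatocytes, the main cells of the liver, make most proteins of blood plasma, turn ammonia into urea, keep blood glucose up during fasting and modify drugs and bile acids. The hypothalamus holds neurons that release peptide hormones, among them oxytocin and vasopressin, together with inhibitory neurons, astrocytes, the myelin-forming oligodendrocytes and the ependymal cells that line the ventricle. In whole tissue, fewer cells of a type and less RNA per cell cannot be told apart.

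The bound of an array shows how far its dim values scatter, since the deposited values run below 0. On chip A the bound was 295 in liver and 258 in hypothalamus, and on chip B 792 in liver and 649.5 in hypothalamus. The pancreas had bounds of 1166 and 2608, the muscle 1065 and 1639.5 and the adipose-labelled sample 390.1 and 918, on chips A and B in that order. Liver and hypothalamus therefore had the lowest bounds of the 5 tissues on both chips. Of the 10 possible pairs of tissues, theirs had the most comparable probe sets, 4864 against 2475 to 4718 in the other 9 pairs. Probe sets at least 4-fold apart numbered 853, which was 17.5% of the comparable ones. That share was 9.59% to 19.95% in the other 9 pairs, and it was higher than 17.5% for pancreas against liver, with 19.95%, and for muscle against liver, with 18.3%.

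**Figure D1:**
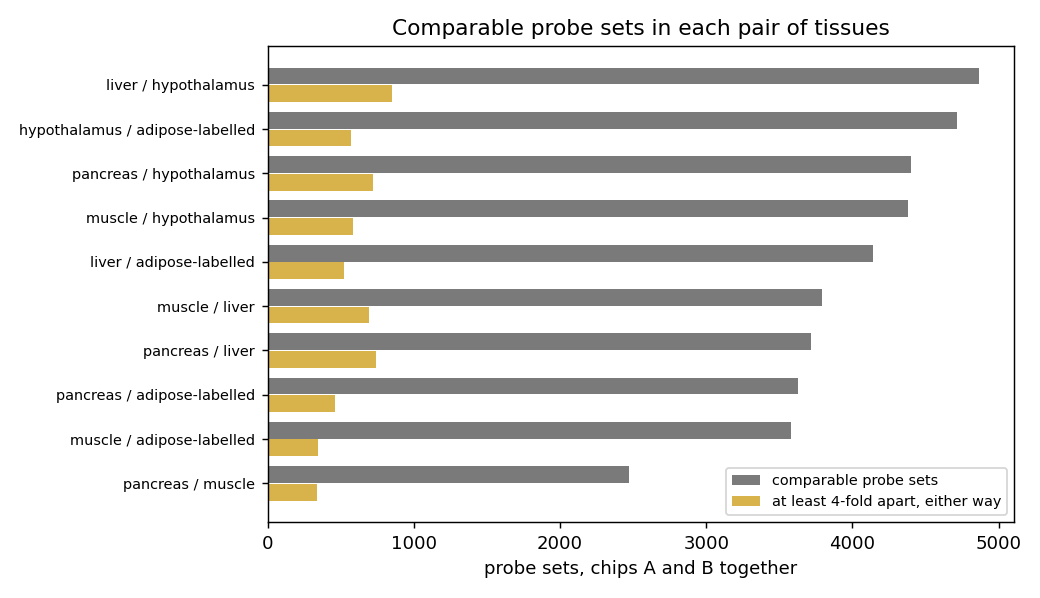
Number of comparable probe sets (grey) and of probe sets at least 4-fold apart in either direction (yellow) for each of the 10 pairs of tissues, chips A and B together. The pair of liver and hypothalamus stands at the top with 4864 and 853, ordered by the number of comparable probe sets.

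A probe set was called higher in a tissue where its value there exceeded the bound and was at least 4 times both the value and the bound of the other tissue. In liver 478 probe sets were called, 9.83% of the 4864, and in hypothalamus 375, or 7.71%. At the level of genes 321 were called higher in liver, 10.3% of 3120, and 262 higher in hypothalamus, 8.40%, which left 2537 called neither way. A fold is given as "at least" where the dimmer side lay at or below its bound, as it did for 215 of the 321 genes and 172 of the 262. The median fold was 9.72 among the genes called in liver and 6.32 among those called in hypothalamus, and 112 and 36 genes exceeded 16-fold in liver and in hypothalamus. A further 1292 members had no single gene name, and 120 of them were called in liver and 75 in hypothalamus. Liver thus had the longer tail of large folds, although the fold that can be reached depends on the bound of the other array.

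The share of calls that fell to liver depended on how the arrays were scaled. It was 56.0% with the trimmed mean used here, 65.0% with scaling to the 75th percentile and 33.5% with scaling to the bacterial spikes added before hybridisation. The median log2 difference over all members, liver minus hypothalamus, was -0.13 with the trimmed mean, 0.10 with the 75th percentile and -0.71 with the spikes. Spike probe sets had a median log2 difference of 0.53 on chip A, where 9 of 9 were higher in liver, and 0.66 on chip B, where 8 of 9 were. No probe set changed sides from liver to hypothalamus or back under any setting tried. To change sides, a probe set would have to pass from 4-fold in one direction to 4-fold in the other. The scalings shifted the arrays by far less, so this outcome follows from the rule and is no support for the calls. Small differences of whole gene families are therefore read below against these shifts.

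Of the 4864 members, 2537 exceeded the bound in both tissues, 821 in liver alone and 1506 in hypothalamus alone. For 215 of them no direction can be given, because the bound of the dimmer tissue was above the value of the other. Among the 2537 measured on both sides, 65.0% lay within 2-fold, 1138 were higher in liver and 1399 higher in hypothalamus. Probe sets of the same gene, compared for 186 genes measured on both sides, differed in their log2 liver over hypothalamus value by a median of 0.37, and 87.1% of the 224 such pairs differed by less than 1. Of 110 called genes with several member probe sets, 63 had another set called in the same direction and 0 in the opposite one.

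**Figure D2:**
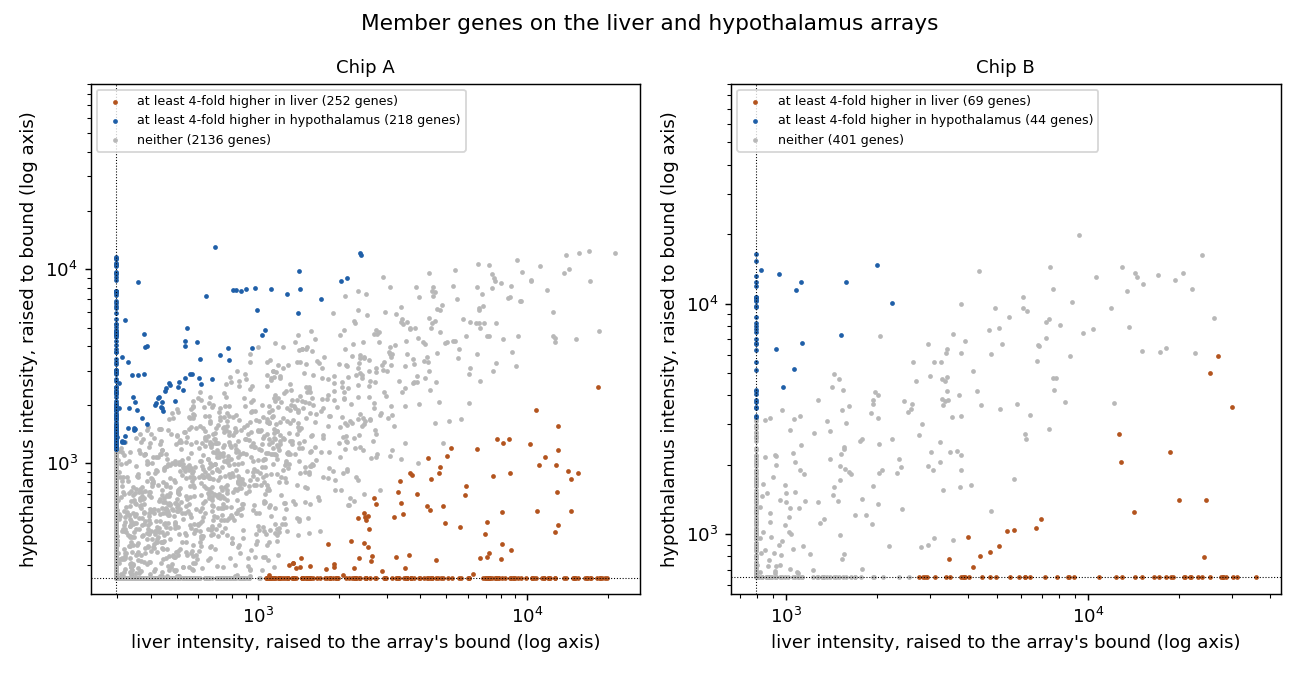
Liver intensity (horizontal, log axis) against hypothalamus intensity (vertical, log axis) of the member genes on chip A and chip B, each value raised to the bound of its array (dotted lines). Genes called higher in liver (orange) lie mostly along the hypothalamus bound at the bottom, and genes called higher in hypothalamus (blue) mostly along the liver bound at the left.

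Signals of the 3' and 5' ends of control transcripts were compared as a sign of RNA integrity. The 3' over 5' ratio of the actin control was 2.84 in liver and 2.17 in hypothalamus on chip A, and 2.61 in liver and 1.96 in hypothalamus on chip B. For the Gapdh control it was 1.18 in liver and 0.892 in hypothalamus on chip A, and 1.35 in liver and 0.845 in hypothalamus on chip B. The liver ratios were the higher ones in all 4 comparisons, and their part in the calls was not tested.

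The values of 4 markers of the tissues are given as a description. The markers were chosen with earlier results of these data known, and Cyp2d26, Pon1 and Ptgds also stood among the called genes of largest fold. They are therefore no independent check of the tissue labels. Cyp2d26, a cytochrome P450 of hepatocytes, had an intensity of 18663 in liver and 94.5 in hypothalamus, at least 72.3-fold higher in liver. Pon1, the paraoxonase that the liver secretes onto high density lipoprotein, had 14924 in liver and -76.6 in hypothalamus, at least 57.8-fold higher in liver. Gad1, which makes the inhibitory transmitter GABA, had 27.9 in liver and 8252 in hypothalamus, at least 10.4-fold higher in hypothalamus. Ptgds, the prostaglandin D synthase of the brain's membranes and glia, had -99.8 in liver and 6812 in hypothalamus, at least 23.1-fold higher in hypothalamus. For each of the 4 markers, the tissue that should lack it lay below its bound.

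The largest fold in liver belonged to Plg, plasminogen, the precursor of the clot-dissolving enzyme plasmin, with 19790.4 in liver and -144 in hypothalamus, at least 76.7-fold. It was followed by Pzp, a broad protease inhibitor of plasma, with 19522 in liver and 74.6 in hypothalamus, at least 75.6-fold, and by Bhmt, which remethylates homocysteine with betaine, with 18966 in liver and -63.7 in hypothalamus, at least 73.5-fold. In hypothalamus the largest fold belonged to Resp18, a protein of neuroendocrine secretory granules, with 17.96 in liver and 11553 in hypothalamus, at least 39.1-fold. Ndn, the imprinted neuronal protein necdin, had -1.996 in liver and 11358 in hypothalamus, at least 38.5-fold. In every one of these 5 genes the dimmer tissue was under its bound, so the folds are lower limits.

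**Figure D3:**
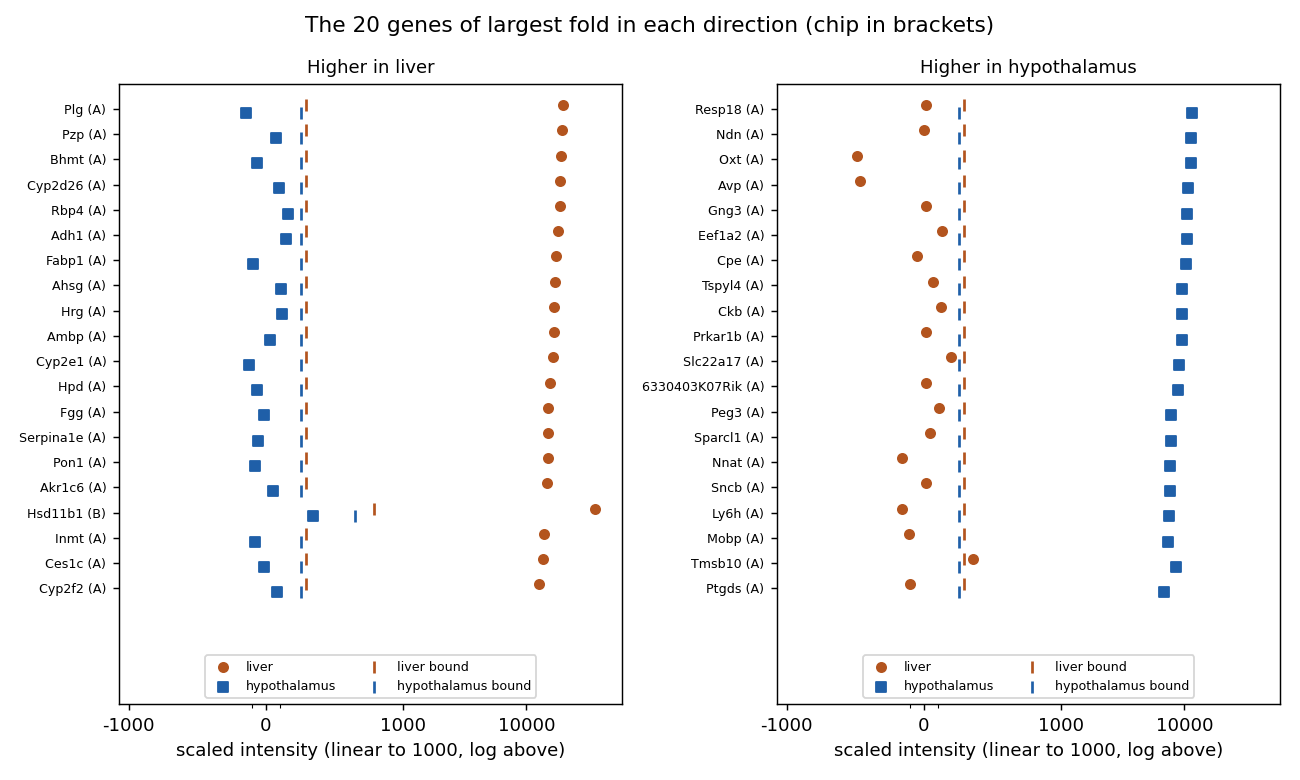
Scaled intensity (horizontal, a linear scale for dim values and a log scale above) of the 20 genes of largest fold in each direction, with liver as circles, hypothalamus as squares and the bounds of the arrays as ticks. In the left panel every hypothalamus value lies below its bound, and in the right panel every liver value does except that of Tmsb10.

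The windows around the start sites of some of these genes are shown because the called genes differed in the make-up of their promoters, which the choice of genes did not use. The windows are RefSeq entries of the assembly GRCm38.p6, 250 bases before to 50 bases after the start, written 5' to 3' on the strand of the gene. Capitals mark matches on either strand to TATAAA (the TATA box), GTTAAT (part of the site of HNF1, a hepatocyte factor), TTGCNNAA (C/EBP), TGACGTCA (the cAMP response element) or CAGCACC (part of the site of REST, a repressor of neuronal genes). The windows are those of the 3 genes of largest fold in each direction that have a window in the table. For liver these are Pzp (chr6:128526671-128526970, minus strand), Bhmt (chr13:93637709-93638008, minus strand) and Cyp2d26 (chr15:82794196-82794495, minus strand). For hypothalamus they are Resp18 (chr1:75278366-75278665, minus strand), Ndn (chr7:62348027-62348326, plus strand) and Oxt (chr2:130575919-130576218, plus strand).
Pzp: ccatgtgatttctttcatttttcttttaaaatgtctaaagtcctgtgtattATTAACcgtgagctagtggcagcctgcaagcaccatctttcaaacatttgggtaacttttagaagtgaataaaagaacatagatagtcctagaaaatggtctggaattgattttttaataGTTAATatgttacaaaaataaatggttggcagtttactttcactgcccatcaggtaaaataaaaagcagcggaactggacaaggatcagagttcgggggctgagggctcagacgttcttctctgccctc
Bhmt: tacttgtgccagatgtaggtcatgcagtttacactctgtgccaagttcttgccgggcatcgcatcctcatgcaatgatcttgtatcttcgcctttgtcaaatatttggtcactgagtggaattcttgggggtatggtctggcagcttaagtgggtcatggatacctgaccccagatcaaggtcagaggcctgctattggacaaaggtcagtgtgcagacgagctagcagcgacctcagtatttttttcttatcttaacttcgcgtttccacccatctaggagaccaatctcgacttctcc
Cyp2d26: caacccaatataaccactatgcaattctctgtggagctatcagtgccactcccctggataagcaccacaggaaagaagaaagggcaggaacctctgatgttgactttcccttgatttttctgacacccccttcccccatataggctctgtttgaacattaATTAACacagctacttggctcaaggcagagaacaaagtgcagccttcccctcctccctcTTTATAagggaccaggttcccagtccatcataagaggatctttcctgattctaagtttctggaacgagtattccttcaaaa
Resp18: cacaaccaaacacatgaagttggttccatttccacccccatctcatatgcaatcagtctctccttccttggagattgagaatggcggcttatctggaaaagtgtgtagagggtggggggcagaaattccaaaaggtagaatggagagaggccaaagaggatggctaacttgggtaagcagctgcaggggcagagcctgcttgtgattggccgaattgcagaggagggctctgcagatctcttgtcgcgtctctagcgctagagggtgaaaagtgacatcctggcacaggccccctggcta
Ndn: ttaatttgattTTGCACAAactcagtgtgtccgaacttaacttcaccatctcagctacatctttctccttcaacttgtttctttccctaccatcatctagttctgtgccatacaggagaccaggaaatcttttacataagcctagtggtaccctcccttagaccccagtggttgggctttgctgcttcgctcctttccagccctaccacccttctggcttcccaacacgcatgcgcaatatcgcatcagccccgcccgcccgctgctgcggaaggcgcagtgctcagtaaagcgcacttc
Oxt: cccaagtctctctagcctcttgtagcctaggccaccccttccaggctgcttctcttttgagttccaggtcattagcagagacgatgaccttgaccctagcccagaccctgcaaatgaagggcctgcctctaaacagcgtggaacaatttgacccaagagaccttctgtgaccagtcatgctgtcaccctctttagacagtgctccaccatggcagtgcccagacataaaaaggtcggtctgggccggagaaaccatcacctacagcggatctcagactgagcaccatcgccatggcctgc
The Cyp2d26 window held a TATA box that begins 31 bases before the start and an HNF1 half-site 90 bases before it, and the Pzp window held HNF1 half-sites 199 and 79 bases before its start. The Ndn window held a C/EBP match 239 bases before the start and those of Bhmt, Resp18 and Oxt held none of the 5 motifs. A match is only a match of letters and shows no binding.

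Of the called genes, 254 of 321 in liver and 203 of 262 in hypothalamus had windows in the table, with 313 and 284 windows. The TATA box was found in 16.9% of the windows of genes called in liver and 8.10% of those called in hypothalamus, against 7.60% of windows of member genes called neither way and 13.6% of all 32851 windows. The HNF1 half-site was found in 11.8% of liver windows and 3.87% of hypothalamus windows, against 4.37% of those called neither way and 7.10% of all. The C/EBP motif followed the same order, with 18.2% in liver and 7.75% in hypothalamus, against 8.15% called neither way and 10.8% of all. All 3 motifs were thus more frequent in windows of genes called in liver than in the other groups listed.

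The cAMP response element was found in 0.319% of windows called in liver and 4.23% of those called in hypothalamus, against 3.08% called neither way and 1.79% of all. The REST half-site was found in 7.67% of liver windows and 8.10% of hypothalamus windows, against 8.15% called neither way and 7.14% of all, with little difference between groups. The median number of CG dinucleotides per window was 8 for genes called in liver and 19 for genes called in hypothalamus, against 21.5 for those called neither way and 7 over all windows. The genes called in liver therefore had promoter windows poorer in CG than those called in hypothalamus. A gene with several start sites contributes several windows, and these shares are descriptions with no test.

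The proteins that hepatocytes secrete into plasma stood out by fold. Of 42 plasma proteins and carriers on the chips, 41 were members and 31 were called higher in liver, 0 in hypothalamus. Their median log2 difference was 4.67, against -0.18 over all 3120 member genes. A gene can be a member through 1 tissue alone, so such counts and medians of lists are descriptions and not support for a difference.

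Alb, serum albumin, had 18122 in liver and 149.9 in hypothalamus, at least 27.9-fold higher in liver. Rbp4, which carries retinol in blood, had 18567 in liver and 158 in hypothalamus, at least 71.9-fold. Apoa2 and Apoc1, apolipoproteins of circulating lipoproteins, were at least 46.2-fold and at least 39.001-fold higher in liver. Hp, haptoglobin, the scavenger of free haemoglobin, had 27853 in liver and -8.93 in hypothalamus, at least 42.9-fold. Hamp, the iron hormone hepcidin, had 20882 in liver and -91.3 in hypothalamus, at least 32.1-fold. These genes were at or below the bound in hypothalamus, whereas Itih1, a heavy chain of an inhibitor that binds hyaluronan, was measured on both sides with 24214 in liver and 791 in hypothalamus, 30.6-fold. Likewise measured on both sides were Rarres2, the adipokine chemerin, with 12998 in liver and 484 in hypothalamus, 26.8-fold, and Vtn, vitronectin of plasma and matrix, with 14600.1 in liver and 572 in hypothalamus, 25.5-fold.

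Some secreted proteins did not follow. Apoe, the lipid carrier that astrocytes also make, had 10312 in liver and 8666 in hypothalamus and was called neither way, and its probe set on chip B had 18280.5 in liver and 10939.5 in hypothalamus. Clu, clusterin, a chaperone of body fluids, had 15597 in liver and 12139 in hypothalamus. Itih3, a relative of Itih1, had 8726 in liver and 5892 in hypothalamus. Selenop, which carries selenium to other organs, was called, but with 25279 in liver and 5016 in hypothalamus, 5.04-fold, because the hypothalamus value was itself well above its bound. A second probe set of Selenop on the same chip had 16781.5 in liver and 1454 in hypothalamus, 11.5-fold higher in liver. Apoa1, the main protein of high density lipoprotein, lay below the bound in both tissues, with -79.8 in liver and -54.7 in hypothalamus. Such values do not show that the message is absent, since a probe set may fail to report it, which was not tested.

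Clotting and fibrinolysis factors numbered 12 on the chips, of which 8 were called higher in liver and 0 in hypothalamus. F2, prothrombin, had 27480.1 in liver and 260.1 in hypothalamus, at least 42.3-fold, and Fgg, a chain of fibrinogen, had 15080 in liver and -10.9 in hypothalamus, at least 58.4-fold. Of 13 serpins and other protease inhibitors of plasma 11 were called in liver, among them Serpina1e, a form of alpha-1-antitrypsin, with 15061 in liver and -60.7 in hypothalamus, at least 58.3-fold. Of 13 complement genes 10 were called in liver, led by C8g, a subunit of the membrane attack complex, with 11528 in liver and 22.9 in hypothalamus, at least 44.7-fold. Cfb, which drives the alternative pathway, had 8858 in liver and 155 in hypothalamus, at least 34.3-fold. None of these 3 lists had a gene called in hypothalamus, and their medians were 3.60, 4.88 and 3.84 on the log2 scale, in the order given. The lists overlap, since 45 of the 932 genes of the 40 lists on the chips stood in several. Among the inhibitors, Serpind1 and Serpinf2 were also counted as clotting factors and Serping1 as a complement gene. Pzp, Ambp, Itih1, Itih2 and Itih3 were also counted as plasma proteins. The lists are therefore not independent of each other.

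Enzymes of nitrogen handling were higher in liver as well. Of 9 genes of the urea cycle 6 were called there and 0 in hypothalamus, with a median of 3.54. Arg1, the arginase that releases urea, had 11579.9 in liver and 42.8 in hypothalamus, at least 44.9-fold, and Otc, ornithine transcarbamylase, had 8998 in liver and -92.5 in hypothalamus, at least 34.9-fold. Asl, argininosuccinate lyase, was measured on both sides with 7963 in liver and 321 in hypothalamus, 24.8-fold. Ass1, the enzyme just before Asl, was well above the bound in both tissues, with 29968 in liver and 3558 in hypothalamus, 8.42-fold. Glul, glutamine synthetase, which astrocytes use to recycle glutamate, had 1393 in liver and 574 in hypothalamus and was called neither way.

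Amino acid breakdown had 22 genes on the chips, and 18 were called in liver, 0 in hypothalamus, with a median of 3.55. Hpd, of tyrosine breakdown, had 15498 in liver and -64.6 in hypothalamus, at least 60.03-fold, and Mat1a, which makes S-adenosylmethionine in the adult liver, had 12168 in liver and 6.96 in hypothalamus, at least 47.1-fold. Tdo2, the first enzyme of tryptophan breakdown, had 21872 in liver and -134 in hypothalamus, at least 33.7-fold. Of 8 genes of gluconeogenesis and sugar handling 4 were called in liver and 1 in hypothalamus. Fbp1, a committed enzyme of gluconeogenesis, had 8669 in liver and -31.8 in hypothalamus, at least 33.6-fold, and G6pc, which releases free glucose, had 1941 in liver and 175 in hypothalamus, at least 7.52-fold. Pcx, pyruvate carboxylase, had 935 in liver and 284 in hypothalamus and missed the threshold. Control probe sets for this enzyme, left out of the comparison, were divided. That of its 3' end had 2938 in liver and 614 in hypothalamus on chip A, more than 4-fold higher in liver. On chip B it had 6164 in liver and 1059 in hypothalamus, again more than 4-fold. The other control sets for the enzyme stayed under 4-fold on both chips.

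Cytochrome P450 enzymes, which oxidise drugs, steroids and fatty acids, had 25 genes on the chips, 22 members and 16 called in liver, 0 in hypothalamus, with a median of 4.12. Cyp2e1, the form induced by ethanol, had 16351 in liver and -123 in hypothalamus, at least 63.3-fold, and Cyp2f2 had 12717 in liver and 80.6 in hypothalamus, at least 49.3-fold. Cyp3a11, a major drug-oxidising form, had 27946 in liver and -97.3 in hypothalamus, at least 43.03-fold, and Cyp1a2, which metabolises caffeine, had 23841 in liver and 499 in hypothalamus, at least 36.7-fold. Cyp7a1, the rate-limiting enzyme of bile acid synthesis, was below the bound in both tissues, with 561 in liver and 38.7 in hypothalamus. P450 genes are close relatives, so a probe set may also bind messages of other forms.

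Of 33 genes of conjugation and detoxification 21 were called in liver and 1 in hypothalamus, with a median of 3.23. Adh1, the alcohol dehydrogenase of liver, had 18105 in liver and 147 in hypothalamus, at least 70.1-fold, and Ces1c, a secreted carboxylesterase, had 13671 in liver and -10.9 in hypothalamus, at least 52.96-fold. Akr1c6, a hydroxysteroid dehydrogenase, had 14758 in liver and 52.7 in hypothalamus, at least 57.2-fold. The gene on the other side was Gstm5, a glutathione transferase of the mu class, with 386 in liver and 4036 in hypothalamus, 10.5-fold higher in hypothalamus. Gstp1, of the pi class, had 7977 in liver and 8479.97 in hypothalamus and was called neither way. The glutathione transferases were therefore split, since Gsta3, of the alpha class, had 30946 in liver and 222 in hypothalamus, at least 47.6-fold higher in liver.

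Fatty acid oxidation and peroxisomes had 33 genes on the chips, of which 25 were called in liver and 0 in hypothalamus, with a median of 2.77. Fabp1, the fatty acid carrier of the hepatocyte cytoplasm, had 17278 in liver and -90.5 in hypothalamus, at least 66.9-fold. Slc27a2, which activates very long fatty acids, had 9899.7 in liver and 150.2 in hypothalamus, at least 38.3-fold. Cat, catalase, was measured on both sides with 10897 in liver and 568 in hypothalamus, 19.2-fold. Some enzymes of the mitochondrial spiral were measured in hypothalamus too: Acaa2, the last thiolase, had 15418 in liver and 891 in hypothalamus, 17.3-fold, and Acadvl, which starts on very long chains, had 3732 in liver and 875 in hypothalamus, 4.26-fold. Crat, carnitine acetyltransferase, was the member of the list that was higher in hypothalamus, with 653 in liver and 1051 in hypothalamus, without reaching the threshold.

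Of 21 genes of bile acid and cholesterol handling 8 were called in liver and 0 in hypothalamus, with a median of 1.52. Slc10a1, which takes bile acids up from blood, had 19085 in liver and -102 in hypothalamus, at least 29.4-fold, and Abcb4, which moves phospholipid into bile, had 2379.6 in liver and -47.7 in hypothalamus, at least 9.22-fold. Baat, which joins bile acids to taurine or glycine, had 4945 in liver and 55.6 in hypothalamus, at least 7.61-fold. Abcb11, the pump that exports bile acids, had 578 in liver and -19.9 in hypothalamus and was not called, and Cyp7a1, the rate-limiting enzyme of bile acid synthesis, was below both bounds, with 560.5 in liver and 38.7 in hypothalamus. Among genes of cholesterol synthesis, Hmgcs1 had 9092 in liver and 3171 in hypothalamus, Fdft1 had 4365 in liver and 2386 in hypothalamus and Sqle had 679 in liver and 602 in hypothalamus, all 3 called neither way. Others of that route were called: Ebp had 3884 in liver and 259.1 in hypothalamus, at least 5.98-fold, and Idi1 had 2706 in liver and 667 in hypothalamus, 4.05-fold. Both roles thus held called and uncalled genes.

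Hepatocyte transcription factors and nuclear receptors were dim. Of 26 on the chips only 10 were members, and 4 of these were called in liver, 0 in hypothalamus. Atf5, a leucine zipper factor abundant in liver, had 3322 in liver and 179 in hypothalamus, at least 12.9-fold. Nr1i3, the xenobiotic receptor CAR, had 1843 in liver and 70.6 in hypothalamus, at least 7.14-fold, and Nr1h4, the bile acid receptor FXR, had 1452 in liver and -88.5 in hypothalamus, at least 5.62-fold. Nr5a2, a regulator of bile acid genes, had 1858 in liver and 151 in hypothalamus, at least 7.196-fold, but a second member probe set had 430.03 in liver and 19.9 in hypothalamus and was not called. Hnf4a, a central factor of hepatocyte identity, had 214 in liver and 104 in hypothalamus, below the bound in both tissues.

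Hypothalamic neuropeptides and the proteins that process them formed the list with the largest share of calls in hypothalamus. Of 28 genes on the chips 24 were members, and 18 were called higher in hypothalamus, 0 in liver, with a median of -2.98. Oxt, oxytocin, had -485 in liver and 11298 in hypothalamus, at least 38.3-fold higher in hypothalamus. Avp, vasopressin, the antidiuretic hormone, had -464 in liver and 10766 in hypothalamus, at least 36.5-fold. The pancreas, muscle and adipose-labelled arrays had values of -2636, -1828 and -1247 for Oxt, so each tissue but the hypothalamus was below 0 for it. For Oxt and Avp alike the hypothalamus was the single tissue of the 5 above its bound.

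Sst, somatostatin, which restrains growth hormone release, had 230.4 in liver and 9719.5 in hypothalamus, at least 12.3-fold. Trh, which releases thyrotropin, had 178 in liver and 6313 in hypothalamus, at least 7.97-fold, and Gal, galanin, had 253 in liver and 2292 in hypothalamus, at least 7.76-fold. Penk, the precursor of enkephalins, had 43.9 in liver and 1918 in hypothalamus, at least 6.49-fold, and Tac2, the precursor of neurokinin B, had 295 in liver and 2452 in hypothalamus, at least 8.301-fold. Tac1, which gives substance P, had -22.9 in liver and 1121 in hypothalamus and fell short of 4-fold against the liver bound. Ghrh and Gnrh1, the releasing hormones for growth hormone and gonadotropins, were below the bound in both tissues, with 112 and 248 in hypothalamus.

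Proteins that pack and trim peptides were called as well. Pcsk1n, an inhibitor of prohormone convertase, had 673 in liver and 16442 in hypothalamus, at least 20.8-fold, and Scg5, a chaperone of another convertase, had -189 in liver and 11894 in hypothalamus, at least 15.02-fold. Scg2, secretogranin 2 of the granule core, had 149.6 in liver and 10349.8 in hypothalamus, at least 13.1-fold. Pam, which amidates peptide ends, had 139 in liver and 1719.7 in hypothalamus, at least 5.82-fold. Cpe, the carboxypeptidase that trims prohormones, had -48.9 in liver and 10387 in hypothalamus, at least 35.2-fold on chip A, but its probe set on chip B had 1490.05 in liver and 759 in hypothalamus and was called neither way. The 2 probe sets of Cpe thus disagreed, and the call rests on that of chip A.

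Transmitter synthesis and transport had 13 genes on the chips, 8 members and 3 called in hypothalamus, 0 in liver. Besides Gad1 these were Slc32a1, which loads GABA into vesicles, with 13.97 in liver and 2893 in hypothalamus, at least 9.797-fold, and Ache, which splits acetylcholine, with -332 in liver and 3755 in hypothalamus, at least 4.74-fold. Gad2, the second GABA enzyme, had -3.99 in liver and 8.95 in hypothalamus, below the bound in both. Abat, which degrades GABA and is also a liver enzyme, had 4083 in liver and 4205 in hypothalamus. Th, the rate-limiting enzyme of dopamine synthesis, had 192 in liver and 585 in hypothalamus and was called neither way.

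Of 20 genes of the synaptic vesicle and release 11 were members and 5 were called in hypothalamus, 0 in liver, with a median of -1.998. Sncb, beta-synuclein of nerve terminals, had 16.96 in liver and 7636 in hypothalamus, at least 25.9-fold. Dnm1, the dynamin that pinches off vesicles, had 97.8 in liver and 5045 in hypothalamus, at least 17.1-fold, and Syp, synaptophysin, had 151 in liver and 9613 in hypothalamus, at least 12.1-fold. Snap25, part of the fusion complex, had 15.96 in liver and 959 in hypothalamus, at least 3.25-fold higher in hypothalamus and under the threshold. Cplx1, complexin, missed the call narrowly, with 321 in liver and 1283 in hypothalamus, 3.99-fold.

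The list of neuronal cytoskeleton and axon genes numbered 47, with 31 members and 23 called in hypothalamus, 0 in liver, and a median of -2.94. This list is broader than its name, since its 3 called genes of largest fold were Ndn, Tspyl4 and Ndrg4. Tspyl4, a nuclear protein of the nucleosome assembly family, had 63.9 in liver and 9641 in hypothalamus, at least 32.6-fold, and Ndrg4, a cytoplasmic protein of neurons, had 63.9 in liver and 6489.8 in hypothalamus, at least 21.97-fold. Gap43, of growing axon tips, had -142 in liver and 4677 in hypothalamus, at least 15.8-fold, and Tubb3, the neuronal beta-tubulin, had -49.9 in liver and 5553 in hypothalamus, at least 7.01-fold. Stmn3, a microtubule regulator, was measured on both sides, with 690.4 in liver and 13021 in hypothalamus, 18.9-fold. Of the neurofilament genes, Nefl had -17.96 in liver and 716 in hypothalamus and Nefh had 61.9 in liver and 660.4 in hypothalamus, and neither reached 4-fold. App, the amyloid precursor, was above the bound in both tissues with 1574 in liver and 12347 in hypothalamus, 7.85-fold.

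Calcium, cyclic AMP and G protein signalling had 38 genes on the chips, of which 27 were members and 18 were called in hypothalamus, 0 in liver, with a median of -2.30. Gng3, a G protein gamma subunit of neurons, had 13.97 in liver and 10564 in hypothalamus, at least 35.8-fold. Prkar1b, a regulatory subunit of protein kinase A, had 15.96 in liver and 9475 in hypothalamus, at least 32.1-fold, while its probe set on chip B had 121 in liver and 2749.5 in hypothalamus and stayed under 4-fold against the higher bound of that chip. Mapk8ip1, a scaffold of the JNK pathway, had -345 in liver and 4606 in hypothalamus, at least 15.6-fold. Calb2, the calcium buffer calretinin, had 656 in liver and 10600 in hypothalamus, at least 13.4-fold, and Pcp4, which binds calmodulin, had -36.9 in liver and 8749 in hypothalamus, at least 11.05-fold. Calm2, calmodulin itself, had 4343 in liver and 13843 in hypothalamus and was called neither way.

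Receptors, ion channels and transcription factors of neurons were mostly too dim to compare, even on these arrays. Of 42 transmitter and peptide receptors 9 were members, and 1 was called, Ntsr2, the low affinity neurotensin receptor, with -31.9 in liver and 4654 in hypothalamus, at least 15.8-fold higher in hypothalamus. Of 27 ion channels 4 were members and 0 were called in either direction. Of 51 hypothalamic and neuronal transcription factors 12 were members and 0 were called. Sox2, a factor of glia and progenitors, had 11.97 in liver and 886 in hypothalamus, at least 3.001-fold higher in hypothalamus, and Dlx1, of inhibitory neurons, had -37.9 in liver and 674 in hypothalamus, at least 2.28-fold, both under the threshold. For these lists a low signal cannot be told apart from an absent message.

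**Figure D4:**
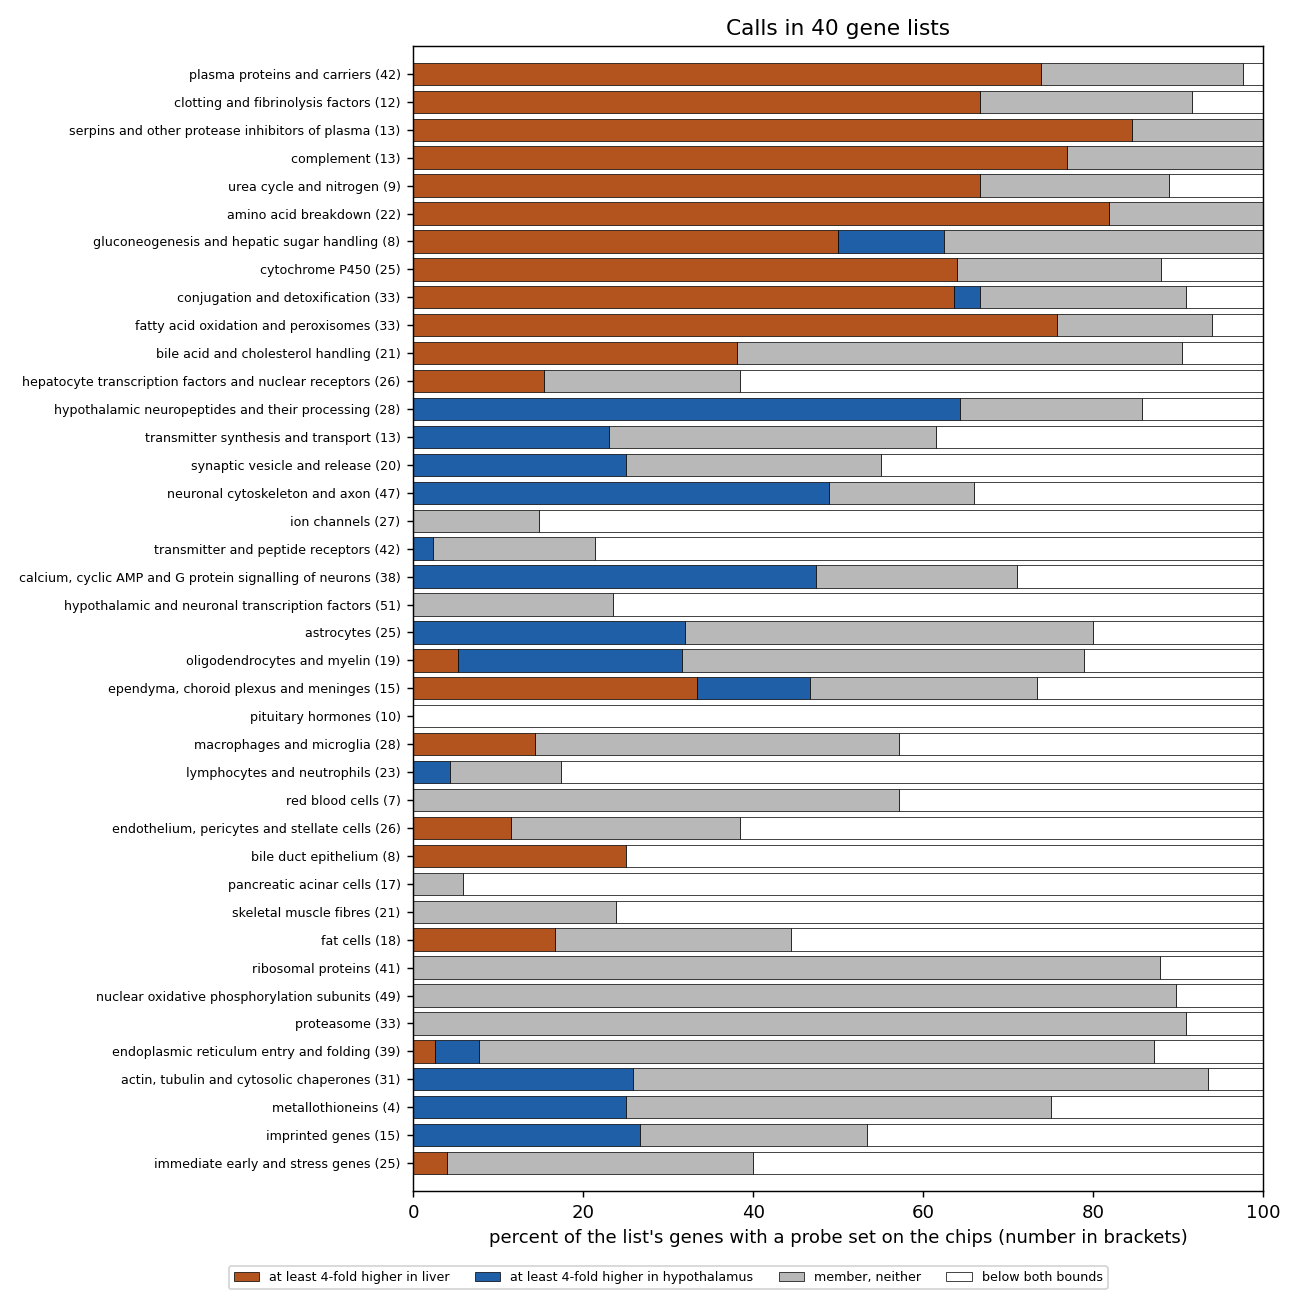
Percent of each list's genes on the chips (number in brackets) that were called higher in liver (orange), called higher in hypothalamus (blue), members called neither way (grey) or below both bounds (white). Lists of hepatocyte function are mostly orange, except those of sugar handling, bile acids and transcription factors. The list of hypothalamic peptides is mostly blue, and blue is the largest part for axons and neuronal signalling. Lists of receptors, channels and transcription factors are mostly white.

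Glial genes were called in part. Of 25 astrocyte genes 20 were members and 8 were called in hypothalamus, 0 in liver, with a median of -1.47. Sparcl1, a matrix protein of astrocytes, had 46.9 in liver and 7736 in hypothalamus, at least 26.2-fold, and its relative Sparc was measured on both sides with 823 in liver and 13987 in hypothalamus, 16.999-fold. S100b, a calcium-binding protein of astrocytes, had 159.6 in liver and 1934 in hypothalamus, at least 6.55-fold. Gfap, the filament protein that defines astrocytes, had 210.4 in liver and 693 in hypothalamus on chip B, where the liver bound leaves no direction. Slc1a2, the main glutamate transporter of astrocytes, was higher in liver, with 781 in liver and 134 in hypothalamus, at least 3.03-fold and not called. The astrocyte list thus held genes on both sides.

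Of 19 genes of oligodendrocytes and myelin 15 were members, with 5 called in hypothalamus and 1 in liver, and a median of -1.27. Mobp, a structural protein of compact myelin, had -112 in liver and 7340.2 in hypothalamus, at least 24.9-fold, and Cldn11, of the tight junctions of myelin, had -115 in liver and 1719.7 in hypothalamus, at least 5.82-fold. Car2, carbonic anhydrase 2, had 185 in liver and 2944 in hypothalamus, at least 9.97-fold. Mag and Mog, further myelin proteins, had 114 in liver and 909 in hypothalamus and -25.9 in liver and 712 in hypothalamus, both under the threshold. The gene called in liver was Gjb1, the connexin shared by hepatocytes and myelin, with 5655 in liver and 1041 in hypothalamus, 5.43-fold.

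Among 15 genes of ependyma, choroid plexus and meninges, 5 were called in liver and 2 in hypothalamus. Ttr, transthyretin, the thyroxine carrier that both hepatocytes and choroid plexus secrete, had 4144 in liver and 156 in hypothalamus, at least 16.1-fold higher in liver. Its hypothalamus value, that of a defining marker of choroid plexus, was below the bound. The genes called in hypothalamus were Ptgds, described above, and Nnat, the imprinted neuronatin, with -163 in liver and 7707 in hypothalamus, at least 26.1-fold. Of 10 pituitary genes 0 exceeded the bound in either tissue, with 422 for Gh, growth hormone, and 186 for Prl, prolactin, in hypothalamus.

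Lists of other cell types held calls in liver too, beside 10.3% of all member genes called there. Of 28 genes of macrophages and microglia 16 were members and 4 were called in liver, 0 in hypothalamus. Clec4f, a lectin of Kupffer cells, the macrophages of liver, had 1337 in liver and 46.7 in hypothalamus, at least 5.18-fold, and Cd74, of antigen presentation, had 3774 in liver and 12.9 in hypothalamus, at least 5.81-fold. C1qa, a complement protein that macrophages of both tissues make, had 1829 in liver and 1204 in hypothalamus. The summed intensity of the 28 genes was 26216 in liver and 10464 in hypothalamus, and its part in the calls of other genes was not tested. Krt8 and Krt18, keratins of hepatocytes and bile ducts, were at least 6.97-fold and at least 7.37-fold higher in liver, while Krt7 and Krt19, which mark bile ducts, were below the bound in both. Of 26 genes of endothelium, pericytes and stellate cells 10 were members and 3 were called in liver, 0 in hypothalamus. Ecm1, an extracellular matrix protein, had 2059 in liver and 266 in hypothalamus, 7.75-fold, and Eng, endoglin of endothelium, had 4158 in liver and 717 in hypothalamus, 5.80-fold. Dcn, the matrix proteoglycan decorin, had 4736 in liver and 833 in hypothalamus, 5.69-fold, while the endothelial markers Pecam1 and Cdh5 were below both bounds. Thy1, fixed in the lymphocyte list and also a protein of neurons, had -156 in liver and 15353 in hypothalamus, at least 19.4-fold higher in hypothalamus, and 19 of the 23 genes of that list were below both bounds. Hba-a1, a globin chain from blood, had 17288 in liver and 6135 in hypothalamus, under the threshold.

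Of 17 pancreatic acinar genes 1 was a member, Amy1, the salivary and liver amylase, with 12173 in liver and 3712 in hypothalamus. Of 21 skeletal muscle genes 5 were members and 0 were called. Of 18 fat cell genes 8 were members and 3 were called in liver: Car3 had 7785 in liver and -13.9 in hypothalamus, at least 30.2-fold, Dgat2 had 17138 in liver and 471 in hypothalamus, at least 26.4-fold and Scd1 had 18359.6 in liver and 2486 in hypothalamus, 7.39-fold. These 3 encode a carbonic anhydrase and enzymes of triglyceride and unsaturated fat synthesis, which hepatocytes also use. Adipoq, adiponectin, and Fabp4, both defining markers of fat cells, were below both bounds, with 119.7 and 67.8 in liver.

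Machinery shared by all cells was close to equal. Of 41 ribosomal protein genes 36 were members and 0 were called, 14 higher in liver and 22 higher in hypothalamus, with a median log2 difference of -0.28 that ran from -0.81 with spike scaling to 0.01 with the 75th percentile. Of 49 nuclear subunits of oxidative phosphorylation 44 were members and 0 were called, with 22 higher on each side, a median of -0.05 and a range of -0.58 to 0.24 over the same scalings. Of 33 proteasome genes 30 were members and 0 were called, with a median of -0.21 and a range of -0.79 to 0.03. The sign of these 3 medians therefore turned with the scaling. Rpl41, a ribosomal protein, had 21234 in liver and 12169.9 in hypothalamus, Atp5b, the catalytic subunit of ATP synthase, had 13884 in liver and 11809.9 in hypothalamus, and Eef1a1, the elongation factor, had 17008 in liver and 12415 in hypothalamus. Ndrg2, a stress-responsive protein of liver and astrocytes, had 14332 in liver and 9979 in hypothalamus.

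Some general genes did differ. Of 31 genes of actin, tubulin and cytosolic chaperones 29 were members and 8 were called in hypothalamus, 0 in liver, with a median of -1.05 that stayed below 0 under every scaling. Tmsb10, which binds free actin, had 359 in liver and 8621 in hypothalamus, 24.002-fold, and Tubb5, a beta-tubulin, had 1114 in liver and 12362 in hypothalamus, 11.1-fold. Hsp90aa1, the inducible cytosolic chaperone, had 902 in liver and 7887 in hypothalamus, 8.74-fold. Of 39 genes of entry into and folding in the endoplasmic reticulum 34 were members and 31 were called neither way. As a list they were thus called less often than all member genes, of which 10.3% were called in liver and 8.40% in hypothalamus. The 1 called in liver was P4hb, protein disulfide isomerase, with 6976 in liver and 1165 in hypothalamus, 5.99-fold. Called in hypothalamus were Srp14, of the signal recognition particle, with 506 in liver and 2479 in hypothalamus, 4.8997-fold, and Erp29, a folding helper, with 614 in liver and 2556 in hypothalamus, 4.17-fold.

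Metallothioneins were split by form. Mt3, the brain form, had 1117 in liver and 7891 in hypothalamus, 7.06-fold higher in hypothalamus. Mt1, the form induced in liver by metals and stress, had 22474 in liver and 6128 in hypothalamus, and Mt2 had 12654 in liver and 4398 in hypothalamus, neither called. Imprinted genes had 15 on the chips, 8 members and 4 called in hypothalamus, 0 in liver. Besides Ndn and Nnat these were Peg3, a paternally expressed zinc finger protein, with 109.8 in liver and 7756 in hypothalamus, at least 26.3-fold, and Snrpn, a splicing protein of the same imprinted region as Ndn, with 221 in liver and 13113 in hypothalamus, at least 16.6-fold. Of 25 immediate early and stress genes 10 were members, and 1 was called in liver and 0 in hypothalamus. That share of the members is close to the 10.3% of all member genes called in liver. The called gene was Zfp36, which destabilises cytokine messages, with 1104 in liver and 129 in hypothalamus, at least 4.27-fold.

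Several metabolic steps are served by different genes in liver and brain, and these were set side by side by their own difference between tissues. Of 16 liver forms on the chips 13 were members, of which 8 were called in liver, 2 in hypothalamus and 3 neither way. Of 23 brain forms 19 were members, of which 0 were called in liver, 10 in hypothalamus and 9 neither way. For fatty acid binding, Fabp1 was called in liver, whereas Fabp3, of heart and brain, had -297 in liver and 4462 in hypothalamus, at least 15.1-fold higher in hypothalamus and Fabp5, the epidermal form, had 486 in liver and 3509 in hypothalamus, at least 4.43-fold. For glucose transport, Slc2a2, the low affinity carrier of hepatocytes, had 2961 in liver and 0 in hypothalamus, at least 11.5-fold higher in liver. Slc2a1, of the blood-brain barrier, had 129.7 in liver and 870.3 in hypothalamus and Slc2a3, of neurons, 84.8 in liver and 515 in hypothalamus, both called neither way.

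For lactate dehydrogenase, Ldhb, the form of oxidative tissues, had 41.9 in liver and 10229 in hypothalamus, at least 12.9-fold higher in hypothalamus, while Ldha, the form of liver and muscle, had 13617 in liver and 7923 in hypothalamus and was not called. In glycolysis Eno2, neuronal enolase, had 59.9 in liver and 5196 in hypothalamus, at least 17.6-fold, and Pkm, the pyruvate kinase of brain and muscle, had 1076 in liver and 11441 in hypothalamus, 10.6-fold. Aldoa, the aldolase of muscle and brain, had 1275 in liver and 7487 in hypothalamus, 5.87-fold on chip A, and both of its probe sets on chip B stayed under 4-fold, the first with 5081.5 in liver and 14296 in hypothalamus. Pfkl, the phosphofructokinase named for liver, went the other way, with 388 in liver and 1603 in hypothalamus, 4.13-fold higher in hypothalamus. So did Prkar1a, the widespread regulatory subunit of protein kinase A, with 1431 in liver and 7894 in hypothalamus, 5.52-fold.

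In the creatine pathway Gamt, which makes creatine in liver, had 6481 in liver and 1179.6 in hypothalamus, 5.49-fold higher in liver, and Ckb, the brain creatine kinase that uses it, had 123 in liver and 9532 in hypothalamus, at least 32.3-fold higher in hypothalamus. Cpt1a, the liver gate of fatty acid entry into mitochondria, had 4786 in liver and 249 in hypothalamus, at least 18.5-fold. Aldh1a1, which oxidises retinal, was measured on both sides with 12732 in liver and 443 in hypothalamus, 28.8-fold. Among connexins Gjb6, of astrocytes, had 93.8 in liver and 1437 in hypothalamus, at least 4.87-fold higher in hypothalamus, and Gja1 had -135 in liver and 1714 in hypothalamus without a call. Forms listed for liver and for brain were on their own side in 18 of the 20 calls. The pairs were chosen with earlier results of these data known, so this count is a description and not support. A further 3 liver forms and 9 brain forms were called neither way. Among these were Slc1a1, listed for liver, and Slc1a2, listed for brain, each higher in the other tissue.

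**Figure D5:**
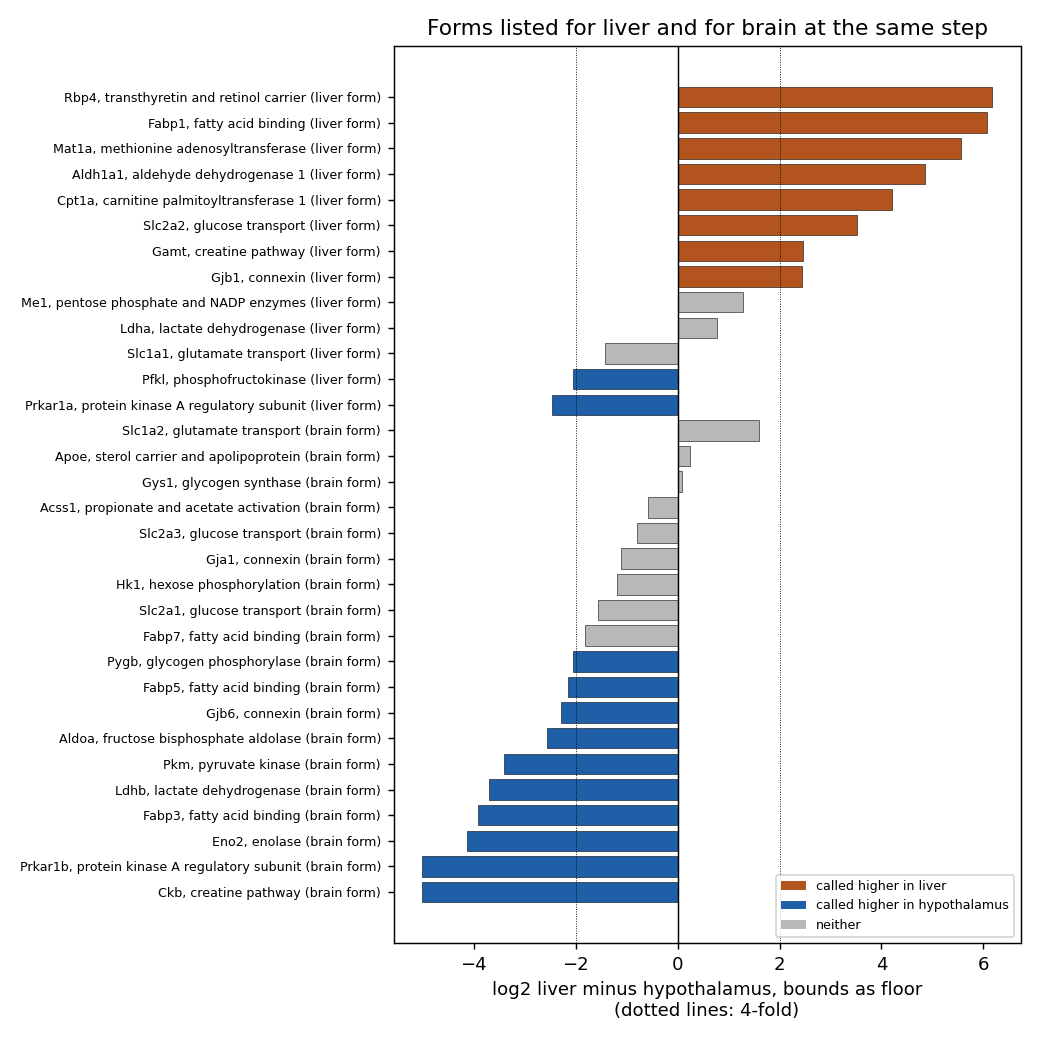
Log2 difference, liver minus hypothalamus, of the 32 member genes listed as liver or brain forms of the same step or pathway, with values raised to the bounds. Of the liver forms 8 extend past the 4-fold line to the right and Pfkl and Prkar1a past it to the left, and 10 brain forms extend past it to the left.

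Some genes called in liver could not be judged against the pancreas. Of the 321 genes 14 had liver values under the pancreas bound of their chip. The bounds and the 4-fold rule leave such genes a narrow range of folds just above 4, and leave no room for a gene called in hypothalamus. The largest such fold was that of Man2b1, a lysosomal mannosidase, with 1164 in liver and -127 in hypothalamus, at least 4.51-fold. Saa2, an acute phase protein, had 1123 in liver and -32.8 in hypothalamus, at least 4.35-fold, and Orm2, another, had 1082 in liver and 144 in hypothalamus, at least 4.19-fold. Cd5l, secreted by macrophages, had 1101 in liver and 109 in hypothalamus, at least 4.26-fold. Eif4ebp2, a repressor of translation, had 1113 in liver and 20.9 in hypothalamus, at least 4.31-fold. Pias2, a SUMO ligase, had 1146 in liver and 13.9 in hypothalamus, at least 4.44-fold, but its second member probe set had 277 in liver and 362 in hypothalamus.

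Being called in this pair does not make a gene particular to the tissue. Of the 321 genes called in liver 114 reached at least 0.5 times their liver value in another tissue, 80 of them in the adipose-labelled sample, whose own labels disagree on what it is, 41 in pancreas and 31 in muscle. Of the 262 called in hypothalamus 85 did so, 48 in muscle, 43 in the adipose-labelled sample and 21 in pancreas. The counts 114 and 85 are lower limits, because a bound above 0.5 times the value can hide such a signal. The bounds of all 3 other tissues were low enough for 220 of the 321 genes and 143 of the 262. Of those, 157 called in liver and 101 called in hypothalamus reached 0.5 times the value in no other tissue. Cyp2e1 had 17182 in the adipose-labelled sample, beside 16351 in liver. Eef1a2, the elongation factor of neurons and muscle, had 133 in liver and 10502 in hypothalamus, and 31556 in muscle. Fabp3 had 21853 in muscle and Sparc 19905 in the adipose-labelled sample, both above their hypothalamus values.

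Many calls sat close to the limits of the rules. The lowest called fold was 4.02 in liver and 4.01 in hypothalamus, and the highest uncalled fold 3.99 in each. Of the called probe sets 80 in liver and 116 in hypothalamus were under 5-fold, and 110 and 218 uncalled ones exceeded 3-fold in liver and in hypothalamus. At the membership limit, Caprin2 was just inside on chip A with 3.99 in liver and 259 in hypothalamus, and Prc1 just outside with 295 in liver and -101 in hypothalamus. On chip B Pex2, of peroxisome assembly, had a probe set just inside with 793 in liver and 419.9 in hypothalamus. On both chips, 9 mouse probe sets were shared and above the bound on all 4 arrays. These 9 were sets for actin, Gapdh, pyruvate carboxylase and the B2 repeat element, with several for the same transcript, so they are not independent. All but the B2 sets were controls left out of the comparison. Their log2 difference, liver minus hypothalamus, moved between chips by a median of 0.28 and at most 0.65, and it was lower on chip A for all 9, by a mean of -0.32 for chip A minus chip B. Whether the chips received the same RNA is not given, so this spread may hold more than that between hybridisations.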

How the data were processed

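The authors deposited linear intensities in whole numbers, 1 per probe set and array, in which values below 0 show that the authors' processing subtracted a signal. Per the labels' protocols, cRNA was made and hybridised after the maker's expression manual of 2001, and the software is not given in the sources used here. Leaving out 61 controls per chip, the arrays of a chip were brought to a common mean, taken after trimming 2% of values at each end. The bound, the 4-fold rule and membership are given above, and log2 differences use values raised to the bounds. Probe sets of different genes were never compared by level.

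Gene names came from platform annotation, with symbols updated from a table of GRCm38.p6, used for names only. Of 13057 non-control probe sets 7542 had a single gene, 224 several and 5291 none. A gene was represented by its member probe set of highest mean log2 value relative to the median member of its chip. Many probe sets are of family or shared design and may bind related messages, among them those of Ldhb, Ckb, Pkm, Sparc, Tubb5, Fabp1 and Serpina1e.

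The members, the 40 gene lists, the isoenzyme pairs, the markers and the rules were chosen with earlier results of these data known. Named genes were the 20 called genes of largest fold in each direction, the 10 of largest fold in each direction under the pancreas bound, 3 per list in its own direction and 2 in the other, the member isoenzymes, the 5 of largest fold measured on both sides in each direction, 5 bright in both tissues within 2-fold and the 4 markers. Other genes of the lists, the genes at the limits, the motifs and the promoters shown were chosen after their values were seen. Calling was tried on simulated chip A data with large changes planted in bright probe sets. That trial does not cover folds near the 4-fold limit, dim genes or chip B. Python 3.11.15, numpy 2.4.6 and pandas 2.3.3 were used.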

Additional observations from a re-analysis of the deposited data

How the results depend on the processing

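No paired analysis was possible because each tissue has 1 array per chip and no test was made. Liver calls, 478 as reported, came to 896 at 2-fold and 284 at 8-fold, 299 on chip A alone and 179 on chip B alone, 41 without the shared, family, similarity and other relaxed probe designs, and 209 with the pancreas bound for both tissues. Hypothalamus calls, 375 as reported, came to 718 with the bound at the 5th percentile, 1094 at 2-fold, 137 at 8-fold, 56 without relaxed designs, 120 on chip B alone, 694 with spike scaling and 88 with the pancreas bound. The median log2 difference of all members was 0.10 with 75th percentile scaling and -0.71 with spike scaling. That of probe sets above the bound in both tissues was -0.13 as reported, 0.12 with 75th percentile scaling, 0.0276 on chip B alone and -0.70 with spike scaling. Spike scaling, the pancreas bound and the removal of some relaxed designs alone were chosen after seeing the data.

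Some list medians changed sign. That of ion channels, 0.11 as reported, was -0.00613 with quantile normalization, -0.478 with the 5th percentile bound, -0.19 with the higher bound for both, -0.0592 without relaxed designs and -0.49 with spike scaling. Without relaxed designs the medians were 0.00865 for neuronal transcription factors, 0.00508 for astrocytes, -0.18 for macrophages, 1.11 for ribosomal proteins and 0.38 for oxidative phosphorylation. That setting left 784 of the 4864 member probe sets, so these medians may rest on few genes. The ribosomal value of 1.11 equals that of the highest single gene of the list as reported, so it is not read as a shift of the list. With 75th percentile scaling they were 0.17 for skeletal muscle, 0.0122 for ribosomal proteins, 0.24 for oxidative phosphorylation and 0.0321 for the proteasome. With spike scaling they were -0.11 for red blood cells, -0.22 for endothelium, -0.41 for the endoplasmic reticulum and -0.43 for immediate early genes. With the 0.5th percentile bound they were 0.0617 for skeletal muscle and -0.0374 for immediate early genes, and with the 5th percentile bound 0.066 for receptors. Metallothioneins had -2.82 without part of the relaxed designs, where Mt3 alone was left. Pias2 had -0.38 with the 5th percentile bound and was not called there, since its other probe set then stood for the gene. For the other list medians the cause was not tested. Of 116 called named genes 112 kept their call with 75th percentile scaling, 114 with quantile normalization, 100 with the 0.5th percentile bound and 101 with spike scaling.

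The height of the bounds limits the comparison: 2327 of the members exceeded the bound in 1 tissue alone, so their folds are limits or cannot be given. The spread between animals is unknown, and chips A and B repeat 9 mouse probe sets above the bound on all 4 arrays.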

Other observations

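Each chip carried probe sets for repeat elements of the mouse genome, which have no gene name and are in no list. The set for the B1 element, a short interspersed repeat, had an intensity of -1.996 in liver and 9992 in hypothalamus on chip A. On chip B it had -110 in liver and 12528 in hypothalamus, so that it was at least 33.8-fold and at least 15.8-fold higher in hypothalamus on chips A and B. The other tissues had 14579 in pancreas, 343 in muscle and 4421 in the adipose-labelled sample on chip A, so that the pancreas was above the hypothalamus.

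The first probe set for the B2 element, another short repeat, had 19466 in liver and 13149.6 in hypothalamus on chip A, and 33388 in liver and 17159 in hypothalamus on chip B. The second had 3273 in liver and 2143 in hypothalamus on chip A, and 6855 in liver and 2870 in hypothalamus on chip B. Neither B2 set was called. The B1 set was thus high in hypothalamus on both chips while the B2 sets were above the bound in both tissues and higher in liver. These sets were chosen after their values were seen, and the difference was not tested.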
